A study of Mus musculus with 2 samples.

Results

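The simple epithelial keratins Krt7, Krt8, Krt18, Krt19 and Krt20 were followed through single-cell RNA sequencing libraries of mouse tongue epithelium. They were taken by symbol from the gene rows of both count matrices, and all 5 were found among 32285 genes. Keratin filaments are built from pairs of one type II and one type I chain. Krt7 and Krt8 are type II chains, and Krt18, Krt19 and Krt20 are type I chains; Krt8 and Krt18 are the usual pair of single-layered epithelia, glands and ducts. The stratified epithelium of the tongue is built mainly from other pairs, such as Krt5 with Krt14 in basal cells and Krt4 with Krt13 in suprabasal cells, whereas taste bud cells and the ducts of minor glands carry Krt8, Krt18 and Krt19. Krt20 is known from intestinal epithelium, urothelium and Merkel cells, the touch cells at the base of the epithelium.

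The libraries compare zeitgeber time 0 (ZT0) with zeitgeber time 12 (ZT12). Each came from male B57BL/6 mice (strain as spelled in the labels) aged 8 to 12 weeks, with no transgene or treatment named. Epithelium was minced, digested with TrypLE, sorted for live cells by 7-AAD exclusion and captured on the 10x Genomics platform. The sources used here do not give the number of mice behind a library, and there was 1 library per time. Differences between ZT0 and ZT12 are therefore differences between these libraries, without a replicate check and without a p-value, and mouse, dissection and time of day cannot be told apart.

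The ZT0 matrix held 1726 barcodes and 49826740 unique molecular identifiers (UMIs, counts of captured transcripts), and the ZT12 matrix 2819 barcodes and 67901140 UMIs. After filtering, 1593 ZT0 cells with a median of 28401 UMIs and 2620 ZT12 cells with a median of 23088 UMIs were kept. The libraries shared 2 barcodes. The doublet caller marked 0.25% of ZT0 and 0.304% of ZT12 cells, so doublets were in effect not removed. Levels are given as counts per 1000000 UMIs of all genes (CPM), with UMIs summed over the named cells. Capture was from the 3′ end, so a level does not scale with transcript length. All intervals are 95% intervals for counting error only. Cells fell into 21 clusters, made without the 5 keratins among the variable genes.

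The sequences upstream of the pair and of Krt20 are shown because Krt8 and Krt18 are neighbouring genes whose UMIs were concentrated in the same cluster, while Krt20 was not read at all. Krt8 lies at chr15:101996698-102004482 on the minus strand and Krt18 at chr15:102028180-102032027 on the plus strand of GRCm38, with 23697 bases between them. Krt7 is also on chromosome 15, at 101411043 to 101430313, and Krt19 and Krt20 are on chromosome 11. The stretches below, from RefSeq promoters of GRCm38.p6, start 250 bases before the RefSeq start and end before the first annotated exon. They are chr15:102004483-102004592 (minus strand), chr15:102027966-102028179 (plus strand) and chr11:99438154-99438403 (minus strand). Capitals mark an ETS-type motif (AGGAAG or its complement CTTCCT) or a TATA box (TATAAA).
Krt8: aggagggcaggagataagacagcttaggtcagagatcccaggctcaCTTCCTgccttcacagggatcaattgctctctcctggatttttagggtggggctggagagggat
Krt18: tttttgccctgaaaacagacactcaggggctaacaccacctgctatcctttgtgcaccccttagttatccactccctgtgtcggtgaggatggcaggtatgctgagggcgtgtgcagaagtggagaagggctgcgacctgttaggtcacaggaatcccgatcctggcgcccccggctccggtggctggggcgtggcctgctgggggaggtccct
Krt20: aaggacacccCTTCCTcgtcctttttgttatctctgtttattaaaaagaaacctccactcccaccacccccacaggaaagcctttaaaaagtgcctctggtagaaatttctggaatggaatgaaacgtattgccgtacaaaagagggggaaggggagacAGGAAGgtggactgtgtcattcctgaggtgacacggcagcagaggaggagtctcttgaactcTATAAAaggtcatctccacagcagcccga
In the 250 bases before the start, searched on both strands, the ETS-type letters occurred for Krt7, Krt8 and Krt20 and in 29.5% of 32851 promoters. The TATA letters occurred for Krt20 and in 12.4% of promoters, and the GC box (GGGCGG) for Krt7 and in 32.7%. The AP-1 letters TGANTCA, in 6.75% of promoters, and the E-box CACGTG, in 6.02%, occurred for none of the 4 keratins in the table. A match is a description of the letters, not of a bound site.

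Over all cells the 4 detected keratins were low. In the ZT0 and ZT12 libraries Krt7 stood at 23.8 and 26.1 CPM, Krt8 at 10.9 and 8.59 CPM, Krt18 at 9.44 and 10.2 CPM, and Krt19 at 8.43 and 10.8 CPM. Krt20 had 0 UMIs in both libraries. A count of 0 allows up to 0.0609 CPM at ZT0 and 0.0447 CPM at ZT12, or 0.188% and 0.115% of cells with a UMI. Krt20 was therefore not detectable at this depth.

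Over both libraries together, Krt8, Krt18 and Krt19 were concentrated in very few cells, and Krt7 less so. A single cluster of 70 cells (35 from each library), cluster 15, held 87.0% of all Krt8 UMIs, 66.3% of Krt18, 83.4% of Krt19 and 26.9% of Krt7. Krt7 and Krt18 differed in this mainly at ZT12. At ZT0 the cluster held 50.8% of Krt7 and 55.9% of Krt18 UMIs, and at ZT12 10.9% and 73.3%. For Krt8 the shares were 80.4% and 93.1%, and for Krt19 80.0% and 85.3%. The leading genes of cluster 15 were Wfdc18, Ltf, Psca and Krt79. Wfdc18 and Ltf, which encode a secreted whey-acidic protein and lactoferrin, belong together with Sox9 to the gland and duct marker list. The cluster's level was 641 CPM for Krt8 (601 to 683), 504 CPM for Krt18 (469 to 541), 629 CPM for Krt19 (589 to 670) and 521 CPM for Krt7 (485 to 558). In all other clusters except 2 small immune-like ones (17 and 13 cells, with Nkg7 and Cd3g or Cd74 and H2-Aa among their top genes) the levels were 1.25 CPM for Krt8 (1.05 to 1.47), 3.35 CPM for Krt18 (3.02 to 3.70), 1.65 CPM for Krt19 (1.42 to 1.90) and 18.7 CPM for Krt7 (17.9 to 19.5). The same 70 cells formed the highest Krt8 cluster at Leiden resolutions of 0.5 and 1.5 and with the keratins kept among the variable genes.

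Cells were called Krt8 Krt18-high when both genes reached at least 500 CPM and at least 5 UMIs in the cell. This held for 17 of 4213 cells (0.404%), all of them in cluster 15. ZT0 had 5 such cells, a share of 0.314% (exact interval 0.102% to 0.731%), and ZT12 had 12, a share of 0.458% (0.237% to 0.799%). The ratio of the shares was 1.46 with an interval of 0.479 to 5.29, so a difference between the libraries was not detectable with this number of cells. The direction turned at a limit of 1000 CPM, with a ratio of 0.973 (0.281 to 3.78), and with all of cluster 15 in place of the limit, at 0.608 (0.370 to 1.0004). The 2 cells nearest inside the limit had 603 and 705 CPM of the lower of the pair, and the nearest outside had 431 and 417 CPM. The 17 cells had a median of 15653 UMIs against 24910 in all other cells.

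Krt8 and Krt18 chose these cells, so their values there describe the selection. Krt8 ranged from 9 to 112 UMIs per cell with a median of 46, and Krt18 from 14 to 73 UMIs with a median of 32. The ratio of Krt8 to Krt18 UMIs within a cell ran from 0.5 to 2.54 with a median of 0.967. Krt8 was the higher of the pair in 8 cells and Krt18 in 9. In no cell did the higher chain exceed its partner by more than 2.54 times.

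**Figure D1:**
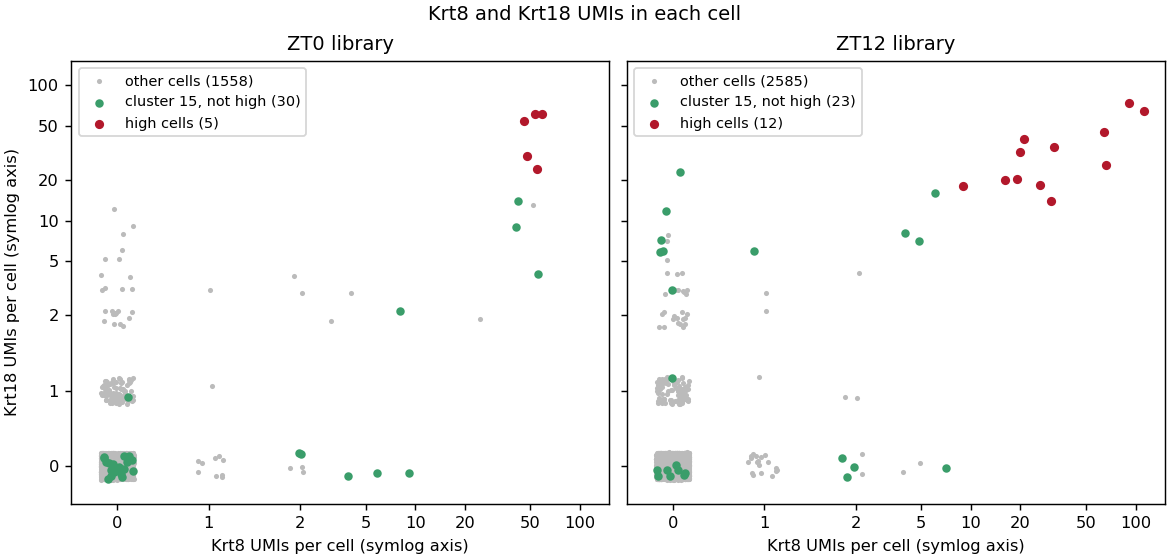
Krt8 (horizontal) and Krt18 (vertical) UMIs in each cell, on symlog axes with small jitter, for the ZT0 and ZT12 libraries. Red points are the 17 high cells, green points the other 53 cells of cluster 15 and grey points all other cells; the grey ZT0 point at 52 Krt8 and 13 Krt18 UMIs is the cell of cluster 10 described in the text.

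Krt19, the type I chain of duct and taste cells, was not used to choose the cells and was high in most of them. It was found in 15 of the 17 cells, at 0 to 164 UMIs with a median of 38. At ZT0 the 5 high cells held 27, 16, 71, 15 and 72 Krt19 UMIs, a level of 2710 CPM against 4.35 CPM in the other ZT0 cells, a ratio of 623 (511 to 759). At ZT12 the 12 high cells ranged from 0 to 164 UMIs with a median of 41, a level of 2743 CPM against 2.33 CPM, a ratio of 1175 (983 to 1412). Both cells without Krt19 were ZT12 cells.

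Krt7, the type II chain of ducts and other glandular epithelia, was found in 14 of the 17 cells, at 0 to 74 UMIs with a median of 10. The 5 ZT0 cells held 64, 9, 11, 74 and 7 Krt7 UMIs, or 2225 CPM against 20.5 CPM in the other ZT0 cells, a ratio of 109 (91.7 to 128). The 12 ZT12 cells ranged from 0 to 34 UMIs with a median of 7, or 649 CPM against 24.2 CPM, a ratio of 26.9 (22.4 to 32.1). At ZT0, 2 cells held most of the Krt7, and 3 of the ZT12 cells had none. For both libraries, 2.03% of 8977 measured genes were at least 10-fold higher in the high cells, and Krt7 and Krt19 were among them. Krt20 stayed at 0 in the high cells.

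The 17 cells were of more than one kind by their other genes. Limits of 50 UMIs of the gland and duct list and 10 UMIs of the taste list, chosen after the values were seen, put 13 cells (2 at ZT0, 11 at ZT12) with the first list and 4 (3 at ZT0, 1 at ZT12) with the second, and no cell with both. Outside the high cells, 33 of 4196 cells also reached the gland limit, 12 of them in cluster 15, and 50 the taste limit. Itpr3, a gene of the taste list, had a UMI in 3075 cells of the series. Wfdc2, a gene of the gland and duct list, had a UMI in 1905 cells, and 6.04% of its UMIs were in the high cells.

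In 7 of the 13 gland-list cells the keratinocyte genes were low, at 21 to 174 UMIs of the basal and differentiated lists together. These cells held 64 Krt8, 45 Krt18, 44 Krt19 and 18 Krt7 UMIs at the median. Most Krt8 was read in the second ZT12 cell, with 112 Krt8, 64 Krt18 and 92 Krt19 UMIs beside 926 Wfdc18 and 283 Ltf UMIs. The other 6 gland-list cells carried 332 to 799 keratinocyte-list UMIs and held 26 Krt8, 25 Krt18, 21 Krt19 and 1.5 Krt7 UMIs at the median. The twelfth ZT12 cell, with 34818 UMIs the deepest of the 17, had 164 Krt19 UMIs, 113 Krt5 and 227 Krt14 UMIs. Whether these 6 droplets each held a single cell was not tested.

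The 4 taste-list cells held no Ltf or Wfdc18 UMI and at most 75 keratinocyte-list UMIs. The third ZT0 cell held 53 Krt8, 61 Krt18 and 71 Krt19 UMIs with 38 Gnat3, 49 Plcb2, 42 Gng13 and 8 Trpm5 UMIs, genes of the signalling chain of sweet, umami and bitter taste cells. It also held 11 UMIs of Tas1r1, a subunit of the umami receptor, and 15 of Pou2f3, a regulator of these cells. The fifth ZT0 cell had 55 Krt8, 24 Krt18 and 72 Krt19 UMIs with 17 Gng13 and 5 Plcb2 UMIs. The eighth ZT12 cell had 26 Krt8, 18 Krt18 and 12 Krt19 UMIs with 15 Snap25 and 12 Pkd2l1 UMIs, and Pkd2l1 marks sour-sensing cells. The second ZT0 cell had 46 Krt8, 54 Krt18 and 16 Krt19 UMIs, with 10 taste-list UMIs in all. Of these, 8 were of Entpd2, known from the supporting cells of taste buds and read in 1345 cells of the series. The cell also had 12 UMIs of Sox2, which is not on that list and was read in 3601 cells of the series. All 4 carried all 4 detected keratins, and Krt7 was at 7 to 11 UMIs in the ZT0 cells and at 34 in the ZT12 cell.

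Some taste genes were read in 1 or 2 cells only. All 143 Gnat3 UMIs of the series lay in 2 cells, 38 in the third ZT0 cell and 105 in a ZT0 cell of cluster 10. All 15 Snap25 UMIs and 12 of 13 Pkd2l1 UMIs lay in the eighth ZT12 cell. The cell of cluster 10 held 52 Krt8, 13 Krt18 and 52 Krt19 UMIs, fell below the limit with 275 CPM of Krt18, and had 47278 UMIs in all, of which 2517 were of keratinocyte genes. It accounted for every Krt8, Krt18 and Krt19 UMI of its 199-cell cluster, which is led by Krt10 and Krt16. Its doublet score was 0.04, and whether the droplet held 1 cell or several was not tested.

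**Figure D2:**
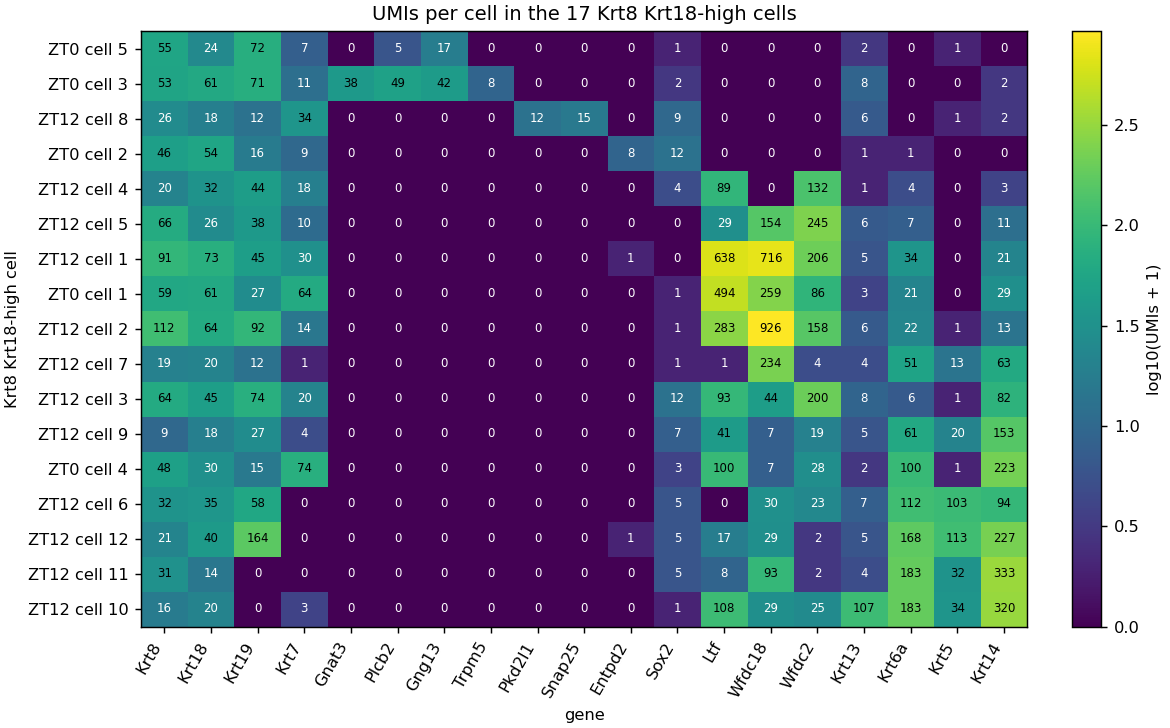
UMIs (numbers) and log10(UMIs + 1) (colour) of the 4 detected keratins, of taste-list genes (Gnat3 to Entpd2), Sox2 (not on the taste list), gland-list genes (Ltf, Wfdc18, Wfdc2) and stratified keratins (Krt13 to Krt14) in each of the 17 high cells. The 4 upper rows, with taste genes, have 0 Ltf and Wfdc18 UMIs; the lower rows are ordered by keratinocyte-list UMIs, and in the last 6 these number 332 to 799.

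Genes known to accompany simple keratins differed in the high cells in a library-by-library comparison with all other cells. Of 17 membrane and junction genes of simple epithelia, 12 were at least 1.5-fold higher in both libraries and 0 were lower; the background was 19% of 8977 genes higher and 12.2% lower. Epcam, an adhesion molecule, stood at 2157 and 2185 CPM in the high cells against 117 and 71.4 CPM in the others at ZT0 and ZT12. The claudins Cldn3 and Cldn7, which seal tight junctions, were found in all 17 cells, with Cldn3 at 809 and 625 CPM against 2.93 and 0.718 CPM. The other 53 cells of cluster 15 also held these genes, with 144 of all 381 Cldn3 UMIs, 98 of 260 Cldn7 UMIs and 898 Epcam UMIs beside 611 in the high cells. Cd24a, a surface glycoprotein, stood at 1240 and 785 CPM against 162 and 156 CPM.

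Of 22 regulators of simple epithelia, 5 were higher and 5 lower, against the background of 19% higher and 12.2% lower; the share higher is near that background. Elf3, an epithelial ETS factor, stood at 742 and 257 CPM against 23.9 and 20.3 CPM, and Sox9 at 94.4 and 562 CPM against 12.0 and 10.9 CPM. Ehf, another ETS factor, stood at 418 and 722 CPM against 108 and 168 CPM. Trp63, the basal-cell regulator of stratified epithelia, was lower, at 13.5 and 48.5 CPM against 324 and 233 CPM. Of 20 partners of the filaments, 2 were higher and 9 lower: Dsp, which anchors filaments to desmosomes, stood at 391 and 722 CPM against 1762 and 2261 CPM. Pkp2, a plakophilin of simple epithelia, stood at 40.4 and 19.4 CPM against 1.44 and 1.29 CPM, on 3 and 4 UMIs in the high cells.

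Lists of other cell types were read in the same cells. The background was again 19% of 8977 genes at least 1.5-fold higher in both libraries and 12.2% lower. Of 17 taste genes 2 were higher and 0 lower, a smaller share higher than that background. Of 20 gland and duct genes 8 were higher, led by Wfdc18, at 3586 and 10961 CPM against 17.5 and 1.56 CPM, and Ltf, at 8008 and 6333 CPM against 23.3 and 2.74 CPM. Of this list 7 genes were at 0 in the high cells: Lpo, Dcpp1, Dcpp3, Prol1, Bpifb1, Bpifb5 and Ascl3. Muc19 had 13 UMIs in 1 cell, Pigr 5, Muc5b 2 and Aqp5 1. None of 8 basal genes and none of the 13 differentiated genes found in the matrices was higher in both libraries, and 5 and 10 were lower. Krt13 stood at 216 and 795 CPM against 18368 and 25966 CPM. Of the 9 genes of the Merkel list, Atoh1, Isl1, Pou4f3 and Krt20 were at 0. Sox2 was read in 15 of the 17 cells, but also in 3601 of the 4213 cells of the series. Its level was 256 and 242 CPM in the high cells against 131 and 180 CPM in the others. Piezo2, a touch channel, was higher in both libraries on 5 UMIs in 2 cells, and Chga, Syp and Rab3c had 4, 3 and 1 UMIs. Of the immune list, 10 of 12 genes were at 0, with 16 Lyz2 UMIs in 1 ZT12 cell. The leading genes were ranked by the smaller ratio of the 2 libraries among 520 genes of at least 200 CPM in the high cells of both. This entry rule uses the high cells themselves, so the ranking is a description. Beside the keratins the first 20 included Cxcl17, Thbs1, Ccl6, Lcn2, Tspan1, Cyba and Runx1. Ccl6 was read in 3, Lcn2 in 5, Thbs1 in 7 and Cxcl17 in 8 of the 17 cells. Tspan1 was read in 9, Cyba in 13 and Runx1 in 14. Of the 20, only Cldn3 and Cldn7 beside Krt8 and Krt18 were read in all 17 cells.

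The other 53 cells of cluster 15 differed between the libraries in which keratin they carried. At ZT0, Krt7 was found in 29 of 30 such cells with a median of 8 UMIs, Krt8 in 9, Krt18 in 5 and Krt19 in 1. Krt7 was the only one of the 5 keratins in 20 of these 30 cells. At ZT12, Krt7 was found in 8 of 23 cells, Krt8 in 8, Krt18 in 11 and Krt19 in 3, and Krt7 alone in 2. The cell with the most Krt7 of the series, at 85 UMIs, was one of the ZT0 cells and held 131 Krt19, 9 Krt8 and 0 Krt18 UMIs. Depth was higher in the ZT0 cells, with a median of 26105 UMIs against 17851 at ZT12, and its part in these counts was not tested.

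In the keratinocyte states, by contrast, the 4 keratins were low and followed different orders. Krt7 had 2 clusters next below cluster 15 whose intervals overlapped: cluster 12 at 74.4 CPM (67.7 to 81.7), led by the late differentiation genes Crct1, Lor, Cnfn and Sprr3, and cluster 11 at 63.1 CPM (57.0 to 69.7), led by Chil4 and Cxcl10. Below them clusters 16, 0 and 3 stood at 39.4, 37.4 and 35.0 CPM with overlapping intervals, and cluster 1, led by Serpinb12 and Serpinb3a, at 19.4 CPM. The lowest were cluster 13 at 0.614 CPM, cluster 4 at 0.534 CPM and cluster 10 at 0.255 CPM, followed by clusters 14 and 17 at 0 UMIs. Krt7 was thus read in suprabasal and in some basal-gene clusters (cluster 3 is led by Glul and Igfbp4 with Dst and Col17a1), and was at 0 to 0.255 CPM in clusters 10 and 17, whose leading genes include the hair-type keratins of filiform papillae.

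Krt18 had another order. Its second cluster was cluster 4, led by Hpgd, Pappa and Wfdc2 with the basal keratin Krt15 among its top genes, at 14.1 CPM (11.6 to 17.1), where Krt7 was at 0.534 CPM. Cluster 7, of dividing cells with Top2a and Ube2c, followed at 7.41 CPM (5.73 to 9.43), with clusters 16 and 13 at 7.08 and 6.45 CPM overlapping it. The lowest were clusters 0, 3, 12 and 1 at 0.720, 0.617, 0.497 and 0.0665 CPM and cluster 17 at 0. In cluster 4, 77 of 339 cells had a Krt18 UMI and no cell more than 6. This was a low level spread over many cells, unlike the high cells.

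Krt8 and Krt19 were lower still outside cluster 15. Krt8 was next highest in cluster 10, at 13.2 CPM from the single cell above, and in cluster 7, at 3.93 CPM, where 25 of 35 UMIs came from 1 ZT0 cell. It lay between 0 and 1.23 CPM in every other cluster of at least 20 cells. Krt19 stood at 13.2 CPM in cluster 10, at 8.29 CPM in cluster 12, where 31 of 50 UMIs came from 1 cell, and at 7.87 CPM in cluster 9, where all 33 UMIs came from 1 cell. Outside cluster 15, 66.7% of the 48 Krt8-positive cells, 73.4% of the 237 Krt18-positive cells and 76.5% of the 51 Krt19-positive cells had a single UMI, against 39.8% of the 382 Krt7-positive cells. Of cells with at least 5 UMIs, 134 were found for Krt7 and 3, 10 and 5 for Krt8, Krt18 and Krt19.

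**Figure D3:**
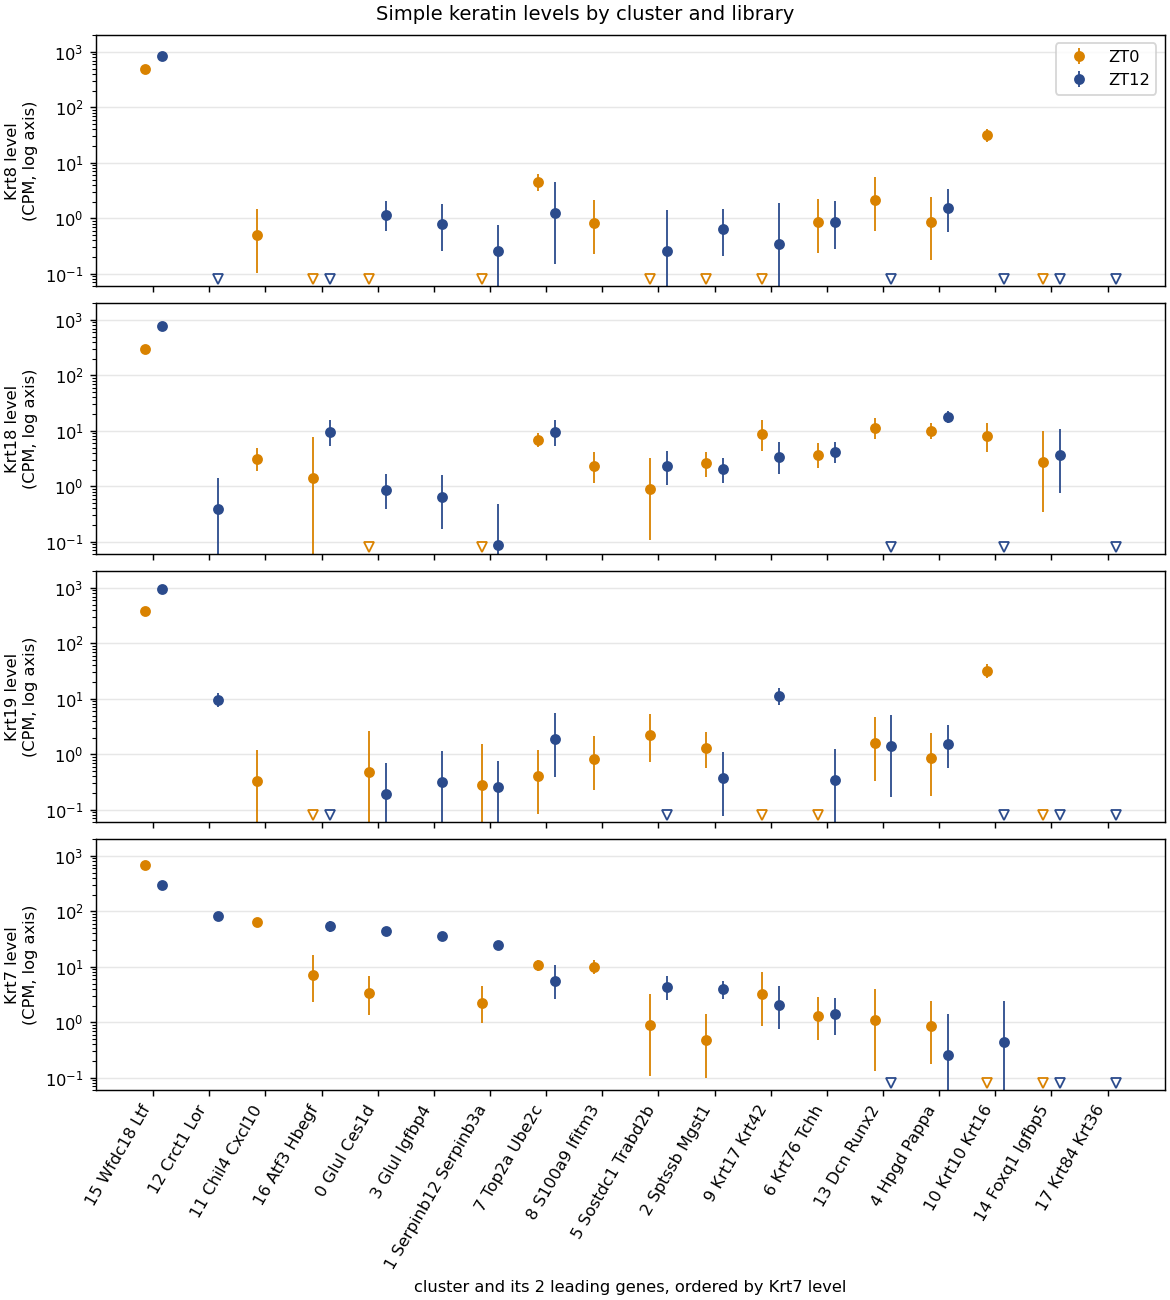
Level of Krt8, Krt18, Krt19 and Krt7 (CPM, log axes) in each cluster of at least 20 cells, ZT0 in orange and ZT12 in blue, for clusters with at least 20 cells in that library; bars are 95% counting intervals and open triangles mark 0 UMIs. Cluster 15 is highest for all 4, Krt7 falls in steps over the other clusters, and the single ZT0 point above 10 CPM of Krt8 in cluster 10 is 1 cell.

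Shares of cells with a UMI were compared after each cell was thinned to the same fixed depth, leaving out shallower cells. Krt7 was found in 96 of 1461 ZT0 cells, or 6.57% (5.35% to 7.97%), and in 201 of 2359 ZT12 cells, or 8.52% (7.42% to 9.72%). Before thinning the Krt7 shares were 8.79% and 11.2%. Krt18 was found in 4.65% and 4.20% of thinned cells, Krt8 in 1.57% and 1.40% and Krt19 in 0.958% and 1.06%; before thinning these were 7.91% and 5.50%, 2.13% and 1.83%, and 1.76% and 1.6%. In cluster 4 the thinned Krt18 share was 16.6% (12.7% to 21.1%). Thinning left out 132 ZT0 and 261 ZT12 cells. The immune-like cells, which should lack the keratins, gave 1 of 15 thinned cells with Krt8 and with Krt18 (6.67%, 0.169% to 31.9%) and 0 of 15 with Krt7 and Krt19, at a median of 17699 UMIs before thinning against 26358 in the other cells. They are not a clean background. In the immune-like cluster with Nkg7 and Cd3g, the 11 ZT0 cells before thinning stood at 1779 CPM of Krt5 and 5444 CPM of Krt14. Counts of 0 of 15 have an upper limit of 21.8%. None of the shares over all cells, nor the Krt18 share of cluster 4, stands above these intervals, which rest on 15 cells. By CPM, Krt18 in cluster 4 was higher than in clusters 0, 1, 3 and 12 of the same libraries beyond counting error.

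Outside the high cells, Krt18 was found in a larger share of the cells with a Krt8 UMI than of those without. Outside the high cells, thinned to the same depth, Krt18 was present in 8 of 20 Krt8-positive ZT0 cells (40%, 19.1% to 63.9%) against 57 of 1438 Krt8-negative ones (3.96%). At ZT12 it was present in 4 of 24 (16.7%, 4.74% to 37.4%) against 86 of 2326 (3.70%). The ratios of the shares were 10.1 (4.16 to 21.3) and 4.51 (1.2 to 12.0). Without cluster 15, an alternative added after the data were seen, 5 of 11 and 3 of 20 Krt8-positive cells had Krt18, and the ZT12 ratio of 4.28 had an interval of 0.865 to 12.97. Without cells over 250 CPM of either gene the ratios were 6.03 (1.21 to 18.6) and 4.003 (0.808 to 12.1), so at ZT12 both settings gave intervals that include 1. Most low-level Krt18, by contrast, was read in cells without a Krt8 UMI.

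None of the 5 keratins passed 1.5-fold between the libraries over all cells. Of 9543 measured genes 5.85% did, 1.03% higher and 4.82% lower at ZT12. The ratio of ZT12 to ZT0 was 1.10 for Krt7 (1.02 to 1.18), 0.789 for Krt8 (0.701 to 0.890), 1.08 for Krt18 (0.956 to 1.21) and 1.28 for Krt19 (1.13 to 1.45). Ratios further from 1 were read after groups of cells were left out. The high cells were chosen by Krt8 and Krt18, and held 261 of 536 ZT0 and 507 of 576 ZT12 Krt8 UMIs. The Krt8 ratio without them therefore depends on that choice, and describes no part of the tissue by itself. Without the high cells Krt8 stood at 5.59 and 1.03 CPM (ratio 0.185, 0.140 to 0.241) and Krt19 at 4.35 and 2.33 CPM (0.536, 0.433 to 0.662). Of the 275 ZT0 Krt8 UMIs behind the first value, 170 were in the other cells of cluster 15 and 52 in the cell of cluster 10. Of the 214 ZT0 Krt19 UMIs, 131 were in 1 other cell of cluster 15 and 52 in the cell of cluster 10, and without cluster 15 the Krt19 ratio was 0.931 (0.692 to 1.26). Krt7 without cluster 15 stood at 11.9 and 23.5 CPM, a ratio of 1.97 (1.79 to 2.17). Leaving out cluster 11 as well, which was nearly all ZT0 (155 of 157 cells), gave 4.51 and 23.5 CPM, a ratio of 5.21 (4.48 to 6.09). Both settings were added after the data were seen.

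**Figure D4:**
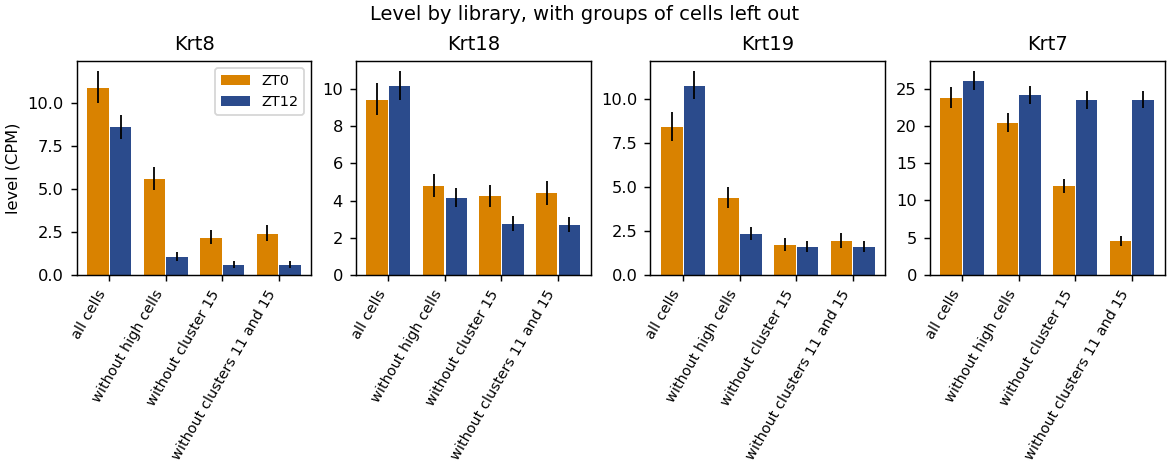
Level of each detected keratin (CPM, bars from 0) at ZT0 (orange) and ZT12 (blue) in all cells and after leaving out the 17 high cells, cluster 15, or clusters 11 and 15; black lines are 95% counting intervals. Krt7 at ZT0 falls from 23.8 to 4.51 CPM as the groups are left out while ZT12 stays between 23.5 and 26.1 CPM, and Krt8 falls to between 0.602 and 2.41 CPM in both libraries once cluster 15 is left out.

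Ratios within clusters were taken where each library had at least 20 cells, a limit lowered from 100 after the data were seen. Krt7 passed 1.5-fold, with an interval excluding 1, upward at ZT12 in 5 of 12 clusters and downward in 1. The shares of genes printed beside the ratios within clusters follow another rule. They count genes of at least 5 CPM that passed 1.5-fold in CPM + 1, without an interval. In cluster 0, led by Glul and Ces1d, 7 UMIs in 72 ZT0 cells (3.33 CPM) compared with 461 in 426 ZT12 cells (44.3 CPM), a ratio of 13.3 (6.41 to 33.3), where 5.58% of measured genes passed 1.5-fold upward. The top genes of cluster 0 also included the clock genes Dbp, Usp2 and Hlf, although these were left out of the variable genes. Of its 498 cells 426 were from ZT12. Whether its ratio compares the same cell state in both libraries was not tested. In cluster 1 the levels were 2.24 and 24.7 CPM, a ratio of 11 (5.51 to 25.7; 3.77% of genes upward). In cluster 16, led by Atf3 and Hbegf, they were 7.05 and 54.1 CPM, a ratio of 7.67 (3.16 to 24.2; 9.63% of genes upward). The ratios of these 3 clusters stayed past 1.5-fold without their highest cell, at 12.4, 10.03 and 5.96. Clusters 2 and 5 had Krt7 levels of 0.487 and 3.93 CPM and of 0.896 and 4.34 CPM. Krt7 was thus under 5 CPM there and not among the measured genes of the shares. In clusters 2 and 5 the ratios were 8.07 (2.52 to 41.2; 2.13% of genes upward) and 4.85 (1.15 to 43.3; 5.17% of genes upward). Without the highest cell they were 3.15 and 3.16 with intervals that included 1.

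Cells were shared unevenly over these states. Cluster 3 was nearly all ZT12 (345 of 352 cells) and held 227 Krt7 UMIs, all at ZT12; cluster 12 held 426 Krt7 UMIs at ZT12 and 23 at ZT0. Cluster 11 held 385 at ZT0 and 0 at ZT12, where it had 2 cells. Of all Krt7 UMIs at ZT0, 50.8% were in cluster 15 and 32.9% in cluster 11, whereas at ZT12 cluster 15 held 10.9% and cluster 11 none. The clusters that held most Krt7 UMIs thus differed between libraries whose total Krt7 levels were 23.8 and 26.1 CPM.

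Cluster 15 went the other way for Krt7. Krt7 fell from 690 CPM in 35 ZT0 cells to 294 CPM in 35 ZT12 cells, a ratio of 0.427 (0.360 to 0.503). Krt8 stood at 500 and 830 CPM (ratio 1.66, 1.46 to 1.89), Krt18 at 301 and 775 CPM (2.57, 2.21 to 2.996) and Krt19 at 385 and 954 CPM (2.48, 2.17 to 2.84). In this cluster 20% of 9904 measured genes passed 1.5-fold upward and 15.3% downward. The 5 high cells at ZT0 and 12 at ZT12 are part of these sums. Without the highest cell the Krt8 ratio was 1.35, under the limit, and those of Krt18, Krt19 and Krt7 were 2.26, 1.92 and 0.487.

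In cluster 4 the 143 ZT0 cells held 36 Krt18 UMIs (10.1 CPM) and the 196 ZT12 cells 70 (17.8 CPM), a ratio of 1.76 (1.16 to 2.71), where 4.04% of genes passed 1.5-fold upward. Krt18 UMIs were found in 26 and 51 of these cells. In cluster 13, led by Dcn and Runx2, it stood at 11.4 CPM in 66 ZT0 cells and at 0 in 60 ZT12 cells (8.36% of genes passed downward). In cluster 16 Krt18 stood at 1.41 and 9.67 CPM on 1 and 15 UMIs, of which 7 were in 1 cell (9.63% of genes passed upward).

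Genes that work with or around the simple keratins were compared between the libraries over all cells. Of 19 measured filament partners 0 were at least 1.5-fold higher and 1 lower at ZT12. Their median log2 ratio was 0.02, that of the regulators 0.05 and that of the membrane genes 0.08, against -0.03 over all 9543 genes. The lower one was Vim, the mesenchymal and immune filament gene, at 43.0 and 6.52 CPM. Of 19 measured regulators 2 were higher, Ehf at 109 and 169 CPM and Elf5 at 5.87 and 13.8 CPM, and 2 lower, Foxa1 at 46.1 and 27.4 CPM and Ovol2 at 11.04 and 4.62 CPM. Of 13 measured membrane genes 0 were higher and 1 lower, Epcam at 120 and 77.9 CPM. For partners and membrane genes 1 lower gene each is near the background of 4.82% lower. The regulators, with 2 of 19 in each direction, had larger shares than the background of 1.03% higher and 4.82% lower.

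Likeness of pattern was measured by Pearson's r of log2(CPM + 1) over 31 profiles of a cluster in a library, each of at least 20 cells, as a description across 5249 genes. The genes most like Krt8 included Cldn3 (0.95) and Cldn7 (0.92), and Krt18 was most like Krt8 (0.86), Cldn3 (0.85) and Wfdc18 (0.84). Those most like Krt19 included Krt8 (0.90) and Cldn3 (0.90). Krt7 was most like the forkhead gene Foxc1 (0.90), Pou3f1 (0.85) and S100a1 (0.83), and its r with Krt8 was 0.55. Profiles of a library share depth and preparation, and all 4 keratins peaked in the 2 profiles of cluster 15. Genes were ranked if they reached 50 CPM in 1 profile. The genes named here also peaked in cluster 15, so both their entry and their high r draw on its 2 profiles. Over the other 29 profiles, a setting added after the data were seen, r was 0.48 between Krt8 and Krt18 and -0.09 between Krt7 and Krt8. The genes most like Krt8 there were Gnat3 (0.80) and Gnb3 (0.78). The highest Krt8 of these profiles, 31.7 CPM in cluster 10 at ZT0, came from the 1 cell described above, with 105 Gnat3 and 126 Gnb3 UMIs. Its part in these r values was not tested. Of the other non-keratin genes named here, only S100a1 (0.80 with Krt7) was again among the 10 most like. Genes under 50 CPM in all 29 profiles were not ranked.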

How the data were processed

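The deposited unit is counts: per the file headers and values, the authors' matrices hold whole-number UMIs per gene and cell barcode. The submitters' processing notes name Cell Ranger 2.1.1 and mm10, while the matrix header names cellranger 4.0.0. Kept cells had 500 genes or more and a mitochondrial share below 10%. Scanpy 1.11.5 scaled cells to 10000 UMIs and took 2000 variable genes, without the 5 keratins and clock, immediate-early and sex-linked genes. Clustering used 30 components, 15 neighbours and Leiden resolution 1. Ratios carry exact conditional binomial intervals and shares Clopper-Pearson intervals at 95%, for counting error only, and a count of 0 has a limit of 3 counts. Genes of at least 5 CPM counted as measured, and their calls use the ratio of CPM + 1. The scripts were tested on simulated data. The alternatives included TMM scaling with edgeR 4.0.16. With 1 library per time there was no test. The 5 genes, the lists and the rules were chosen with earlier results of these data known. The rule named the 5 keratins, the 10 genes most like each, the 20 leading genes of the high cells, up to 4 genes of each list and the 5 highest and lowest clusters; some are printed here, and single-cell values, Trp63, Dsp, Sox9, Ehf and Elf3 were picked after their values were seen. Some genes of the lists are not reported here.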

Additional observations from a re-analysis of the deposited data

Results flagged for a closer look

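The ratio of ZT12 to ZT0 within a cluster went opposite ways for the same keratin, which is why these values are listed; the differences between clusters were not tested. Krt7 had ratios of 13.3 in cluster 0, 11 in cluster 1 and 7.67 in cluster 16, and of 0.427 in cluster 15. Krt18 had ratios of 1.76 in cluster 4 and 2.57 in cluster 15, and of 0 in cluster 13, where 21 UMIs at ZT0 compared with 0 at ZT12.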

How the results depend on the processing

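No paired analysis was possible because each time had 1 library. Levels over all cells are log2 ratios of ZT12 to ZT0, and settings without cluster 15 or without clusters 11 and 15 were added after the data were seen. Krt7 (0.13) was 0.28 under the stricter cell filter, -0.14 as a mean over cells, 0.98 without cluster 15 and 2.38 without clusters 11 and 15. Krt8 (-0.34) was -0.54 under the stricter filter, -2.44 without the high cells, -1.85 without cluster 15 and -1.998 without both clusters. Krt18 (0.11) was -0.21, -0.63 and -0.71, and Krt19 (0.35) was -0.90, -0.10 and -0.26, under the same 3 removals, and Krt19 was 0.64 under the stricter filter. The 17 high cells became 8 under the stricter filter and 70 with the cluster in place of the limit. For high over other cells, Krt7 at ZT0 (6.76) was 8.13 under the stricter filter, 6.23 at a limit of 250 CPM and 5.86 with the cluster, and at ZT12 (4.75) it was 4.002, 5.44 at 1000 CPM and 3.65. Krt19 at ZT0 (9.28) was 8.81, 8.74 at 250 CPM and 7.81, and at ZT12 (10.20) it was 10.92, 9.23 at 1000 CPM and 9.22. The ZT12 log2 ratio of Krt18 shares with and without Krt8 (2.17) was 4.19 at 5000 UMIs per cell. The causes were not tested. Another 77 values stayed within the main value's interval or, for counts, within 1.5 times, TMM scaling and the other clusterings included. Values from few cells limit most of these results.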
